A study of Danio rerio with 28 samples.

Results

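Gene expression was compared between ccl34b.1+ and ccl34b.1- cells taken from the brains of zebrafish injected with E. coli. The comparison rests on 6 of the 28 libraries of the series, 3 of each gate, chosen by the labelled treatment and gate and by no measured value. The 3 fish were 6 months old and of genotype TgBAC(ccl34b.1:eGFP);Tg(mpeg1:DsRedx), so that a green reporter is driven by ccl34b.1 and a red one by mpeg1. Every other fish of the series carries both reporters as well. From each fish, 100 cells positive for both reporters (ccl34b.1+) and 100 cells positive for the red reporter alone (ccl34b.1-) were sorted, in 3 technical replicates of which 1 was sequenced, chosen on cDNA quality. The injection experiment also held 4 fish given PBS, the buffer alone, and 2 control fish of the same age and genotype, and these serve below as background for the gate difference. The gates follow reporter brightness and not a single cell type, although the labels call all of the cells microglia. The dose, route and time of the injection are not given in the sources used here.

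Microglia are the resident macrophages of the brain, and mpeg1, which encodes a perforin-like protein of macrophages, is used in zebrafish to mark them. In the zebrafish brain ccl34b.1, a chemokine gene, separates mpeg1+ cells into populations, one rich in classical microglial genes and one that shares genes with dendritic cells, the cells that present antigen to T cells. Macrophages that meet bacteria are known to secrete interleukin 1 beta and neutrophil-attracting chemokines, to make superoxide with the NADPH oxidase, and to acidify phagosomes with the vacuolar ATPase. Dendritic cells are known for MHC class II presentation and for chemokines that guide lymphocytes.

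The ccl34b.1+ libraries held 3661889 to 4106530 counts and 8748 to 9397 detected genes, and the ccl34b.1- libraries 3335554 to 9691032 counts and 8204 to 9960 genes. Levels are CPM, counts divided by the scaled library total and brought to a common sum, listed for libraries 1, 2 and 3 of each gate in that order, and log2 fold changes are ccl34b.1+ over ccl34b.1- with their SE. A gene is called where its adjusted p in the edgeR quasi-likelihood fit is under 0.05. The 3 ccl34b.1+ libraries resembled one another (Pearson r of log2 CPM across genes 0.699 to 0.744). The 3 ccl34b.1- libraries did not stand closer to each other (0.533 to 0.573) than libraries of different gates did (0.501 to 0.607). Many symbols are printed in capitals because the name table gives the human-style name.

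Of 12421 genes tested, 287 were called between the gates (2.31%), 110 higher in ccl34b.1+ cells (0.886%) and 177 lower (1.43%). The shares higher and lower are the background for each count of list members called after E. coli below. At an unadjusted p under 0.05 there were 2639. All 3 libraries of a gate lay above all 3 of the other for 15.2% of genes, and this held for 108 of the 110 genes called higher and 155 of the 177 called lower. Among the called genes the median log2 fold change was 4.13 for those higher and -6.19 for those lower, against -0.10 over all genes tested. The count ranged from 162, without ccl34b.1+ library 3, to 351, without ccl34b.1- library 2, when 1 library was left out. It was 177 without ccl34b.1+ library 2 and 188 without ccl34b.1+ library 1.

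**Figure D1:**
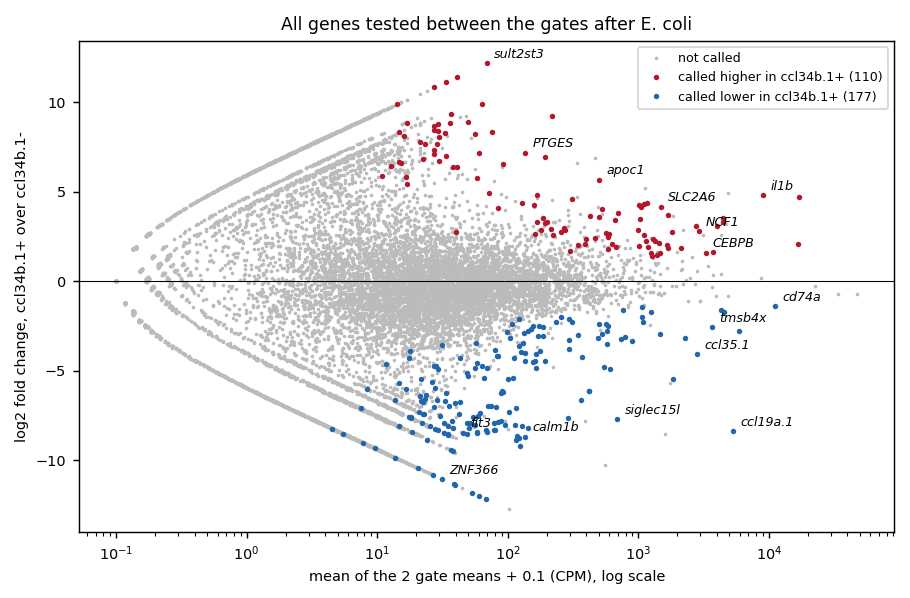
Each point is 1 of the 12421 genes tested, with its level on the x axis (mean of the 2 gate means plus 0.1 CPM, log scale) and its log2 fold change, ccl34b.1+ over ccl34b.1-, on the y axis. Red points are the 110 genes called higher and blue points the 177 called lower, and il1b and ccl19a.1 stand out on either side among the genes of high level.

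The gate genes were checked first. The level of ccl34b.1 was 1537, 551 and 684 CPM in ccl34b.1+ cells and 154, 13.0 and 64.6 CPM in ccl34b.1- cells (log2 fold change 3.58 ± 0.71, adjusted p = 0.00916), which restates the sort. Without ccl34b.1- library 3 its adjusted p was 0.0614, and its fold change was 4.57 without ccl34b.1- library 1. MPEG1 (ENSDARG00000055290), the gene behind the reporter that both gates share, was detected in all 6 libraries but unevenly. It stood at 212, 46.2 and 107 CPM in ccl34b.1+ cells and at 966, 517 and 1345 CPM in ccl34b.1- cells, with no overlap (-2.95 ± 0.50, adjusted p = 0.00034). Without ccl34b.1+ library 1 its fold change was -3.62. After PBS the same gene was at 757 ± 325 and 1857 ± 565 CPM (SD, n = 4 and 4, -1.29 ± 0.41, adjusted p = 0.0831), and the difference between the treatments in this gate difference was not called (-1.66, adjusted p = 0.23).

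Of 20 measured genes of the microglia identity list 7 were called higher in ccl34b.1+ cells (0.886% of all genes) and 0 lower (1.43%), with a median log2 fold change of 1.64. Of the 7, 1 is the sort gene ccl34b.1. Negative log2 fold changes, down to -3.77, were found for 3 of the 20. For 1 gene all ccl34b.1+ libraries lay below all ccl34b.1- libraries. Below the filter on low counts, SALL1 (ENSDARG00000074319) was at 21.3 CPM in ccl34b.1- library 2 alone. The apolipoprotein gene apoc1 was at 1166, 915 and 862 CPM against 19.1, 8.97 and 29.1 CPM (5.68 ± 0.46, adjusted p = 4.23e-10). The gene apoeb, an apolipoprotein E gene that is a standard microglial marker, was at 2733, 1782 and 2146 against 105, 18.2 and 198 CPM (4.37 ± 0.65, adjusted p = 0.00128), and its fold change was 5.18 without ccl34b.1- library 3. Each of these genes was separated between the gates in all libraries. The organic anion transporter gene slco2b1 stood at 167, 111 and 143 against 2.23, 9.42 and 2.13 CPM (4.94 ± 1.00, adjusted p = 0.00624). Its call was lost without ccl34b.1- library 1 (adjusted p = 0.0572), and its fold change was 5.99 without ccl34b.1- library 2. The other 3 were lgals9l1, lgals3bp.1 and CTSB, at log2 fold changes of 3.41, 2.89 and 1.4, each lost in at least 4 of 6 fits without 1 library (adjusted p up to 0.155), and lgals9l1 was at 4.54 without ccl34b.1- library 3. The summed level of the microglia list was 9635 to 14995 CPM in ccl34b.1+ and 1696 to 3863 CPM in ccl34b.1- libraries. P2RY12, a purinergic receptor of microglia, was at 39, 15 and 23.6 against 0.608, 0 and 0.203 CPM, yet was not called (6.44 ± 1.95, adjusted p = 0.0777). Left-out libraries brought the list's count down to 3 (without ccl34b.1- library 1) and to 4 (without ccl34b.1+ library 1 or 3). In these bulk samples, fewer cells of a type and less RNA per cell cannot be told apart.

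Genes of conventional dendritic cells followed, with calls in the other direction. Of 18 measured members 11 were called lower in ccl34b.1+ cells and 0 higher, with a median log2 fold change of -6.24, and 11 or 12 were called in each of the 6 fits without 1 library. With the 6 E. coli libraries fitted alone 7 were called. The list was drawn with results on these cells known, so its direction is not independent evidence. The homeostatic chemokine gene ccl19a.1 was at 37.2, 29.5 and 29.4 CPM in ccl34b.1+ cells and at 16190, 7890 and 7619 CPM in ccl34b.1- cells (-8.36 ± 0.48, adjusted p = 8.54e-14), a 330-fold difference. For siglec15l, a sialic acid-binding lectin gene, the values were 9.48, 4.43 and 5.96 against 1209, 989 and 1921 CPM (-7.69 ± 0.51, adjusted p = 2.06e-12). HEPACAM2, an adhesion gene, stood at 3.70, 2.70 and 1.28 against 157, 116 and 265 CPM (-6.12 ± 0.69, adjusted p = 6.61e-07). None of these genes overlapped between gates. The cytokine receptor gene flt3, which dendritic cell precursors need in mammals, had 3 counts in all ccl34b.1+ libraries and 165, 12.8 and 93.8 CPM in ccl34b.1- cells (ratio 407, 95% counting interval 139 to 1973). KCNK18, a potassium channel gene, had 2 counts against 49.5, 55.8 and 46.1 CPM (ratio 322, interval 88.9 to 2664). XCR1 (ENSDARG00000054847), the chemokine receptor of cross-presenting dendritic cells in mammals, was at 0.694, 0.246 and 0.425 against 54.8, 68.6 and 13.9 CPM (-6.56 ± 1.09, adjusted p = 0.000287). The transcription factor gene ID2 showed a smaller difference, 86.7, 179 and 160 against 1492, 617 and 1927 CPM (-3.24 ± 0.48, adjusted p = 4.62e-05). The remaining members called were chl1a, epdl1, SPOCK3 and cd83, between -8.11 and -3.36 on the log2 scale. Without ccl34b.1+ library 1 the fold changes of SPOCK3, epdl1 and chl1a were -9.11, -7.99 and -6.96, and chl1a was at -4.57 without ccl34b.1- library 3. The labels call the cells of both gates microglia, while the summed level of the dendritic cell list was 494 to 768 CPM in ccl34b.1+ and 11223 to 24283 CPM in ccl34b.1- libraries.

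**Figure D2:**
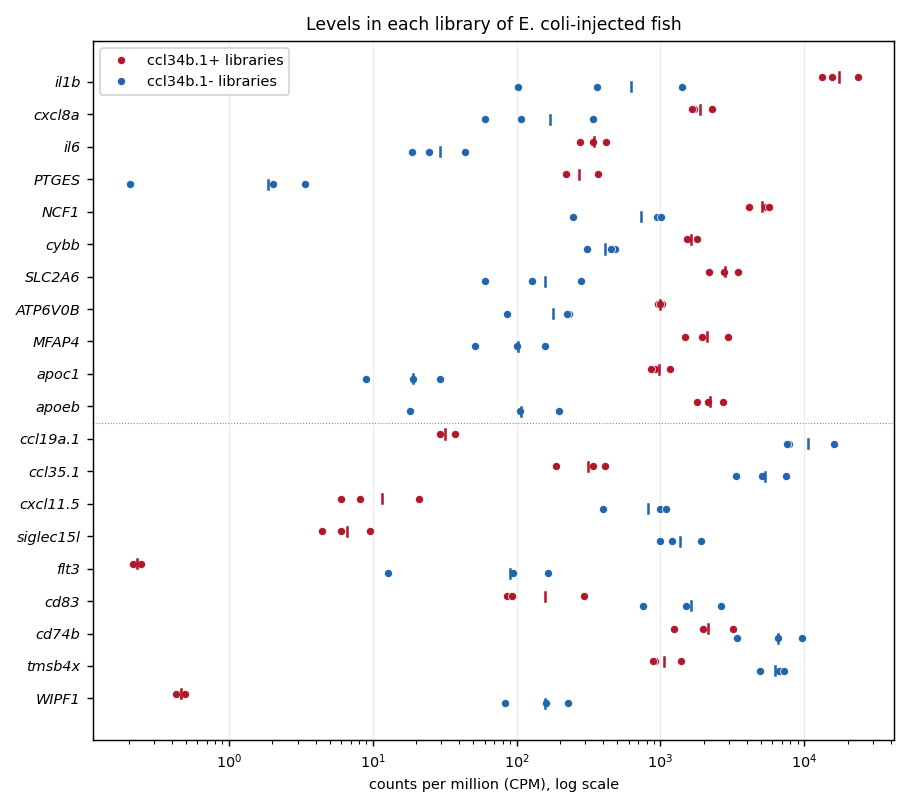
Dots are the CPM (log scale) of each of the 3 ccl34b.1+ (red) and 3 ccl34b.1- (blue) libraries for 20 genes, and short bars are gate means. The 11 genes above the dotted line were called higher in ccl34b.1+ cells and the 9 below it lower, and in none of the 20 do the gates overlap, cd74b having the smallest gap (3193 against 3404 CPM).

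Inflammatory cytokines were not shared out evenly. Of 32 measured members of that list, 3 were called higher in ccl34b.1+ cells and 2 lower, with a median log2 fold change of 1.02. Interleukin 1 beta (il1b), a pyrogenic cytokine of macrophages, reached 15536, 23651 and 13326 CPM in ccl34b.1+ cells against 102, 1422 and 361 CPM (4.8 ± 0.75, adjusted p = 0.0017), and 6.24 on the log2 scale without ccl34b.1- library 2. The prostaglandin E synthase gene PTGES was at 220, 370 and 220 against 2.03, 3.36 and 0.203 CPM (7.19 ± 1.08, adjusted p = 6.84e-05), and 7.95 without ccl34b.1- library 2. Interleukin 6 (il6) stood at 341, 418 and 276 against 24.7, 18.8 and 43.7 CPM (3.56 ± 0.74, adjusted p = 0.00434). All 3 lay above the ccl34b.1- libraries in every ccl34b.1+ library. On the ccl34b.1- side was il12ba, which encodes a p40-type subunit of interleukin 12, the cytokine that dendritic cells use to direct T cells in mammals. Its values were 1.16, 0.738 and 0.638 against 584, 41.5 and 54.8 CPM (-8.02 ± 1.32, adjusted p = 0.000257), and -5.79 on the log2 scale without ccl34b.1- library 1. The tumour necrosis factor gene tnfb was at 376, 591 and 169 against 1535, 1045 and 2851 CPM (-2.26 ± 0.57, adjusted p = 0.0264), but its call was lost without ccl34b.1+ library 1, ccl34b.1+ library 3 or ccl34b.1- library 3 (adjusted p up to 0.152). Its paralog tnfa overlapped between gates, at 119, 305 and 79.8 against 38, 142 and 545 CPM. Several members with higher means in ccl34b.1+ cells did not pass. ACOD1, which makes the antibacterial metabolite itaconate, was at 8020, 9465 and 10824 against 177, 706 and 30.1 CPM (4.96 ± 2.09, adjusted p = 0.214). The granulocyte growth factor gene csf3b was at 5943, 8588 and 4353 against 276, 492 and 0.101 CPM (4.62 ± 2.16, adjusted p = 0.242). Both were named after their values were seen, and both were separated between gates.

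Chemokines divided between the gates by gene. Of 24 measured, 2 were called higher in ccl34b.1+ cells, of which 1 is the sort gene, and 7 lower, with a median of -0.31. The neutrophil-attracting chemokine gene cxcl8a, an IL-8 gene, was at 2285, 1705 and 1653 against 340, 108 and 60.7 CPM (3.47 ± 0.77, adjusted p = 0.00922). Its call was lost without ccl34b.1- library 2 (adjusted p = 0.0596) or 3 (0.0535), and its fold change was 4.48 without ccl34b.1- library 1. Besides ccl19a.1, ccl35.1 was at 412, 342 and 187 against 7514, 3358 and 5072 CPM (-4.08 ± 0.45, adjusted p = 3.4e-07). Its neighbour in name ccl35.2 was at 25.4, 61.2 and 30.6 against 1592, 899 and 1022 CPM (-4.90 ± 0.59, adjusted p = 2.13e-06). The interferon-inducible cxcl11 genes, whose mammalian counterparts attract activated T cells, followed. For cxcl11.5 the values were 20.8, 8.11 and 5.96 against 987, 398 and 1086 CPM (-6.14 ± 1.08, adjusted p = 0.000599, -6.87 without ccl34b.1+ library 1). The paralogs cxcl11.6 and cxcl11.7 stood at -6.62 ± 1.09 and -4.76 ± 0.95 (adjusted p = 0.000269 and 0.0035), and moved to -7.38 and -6.45 without ccl34b.1+ library 1, while cxcl11.6 was at -6.01 without ccl34b.1- library 1. Reads of these near-identical genes may be shared among them. The least even member was ccl33.3, at 0.694, 0.492 and 0.213 against 49.9, 126 and 524 CPM (-8.89 ± 2.03, adjusted p = 0.013). Its call was lost without each of the 3 ccl34b.1+ libraries (adjusted p up to 0.109), and its fold change was -7.43 without ccl34b.1- library 3.

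Receptors for attractants were mostly uncalled: of 22 measured, 1 was higher and 2 lower, with a median of -2.13. A pair of IDs that share the name CMKLR1, a receptor for chemerin in mammals, lay in opposite gates. ENSDARG00000090890 was at 1779, 2115 and 1794 against 290, 265 and 656 CPM (2.23 ± 0.43, adjusted p = 0.00168). ENSDARG00000110362 had 3 counts in ccl34b.1+ cells against 13.4, 37.0 and 30.1 CPM (ratio 120, interval 40.7 to 582), a call lost without ccl34b.1+ library 1 (adjusted p = 0.0523) or 3 (0.069). CCR9 (ENSDARG00000055186), a homing receptor, was at 96.0, 55.1 and 15.3 against 415, 289 and 912 CPM (-3.28 ± 0.68, adjusted p = 0.00433), and at -3.94 without ccl34b.1+ library 1 and -2.65 without ccl34b.1- library 3. Pattern recognition genes gave 0 of 38 higher and 1 lower, with a median of 0.07. The 1 called, the double-stranded RNA sensor gene tlr3, stood at 239, 3.14 and 58.7 CPM in ccl34b.1- cells against 4 counts in all ccl34b.1+ libraries (-8.21 ± 1.93, adjusted p = 0.0126). Its call was lost without any of the 3 ccl34b.1+ libraries or ccl34b.1- library 1 (adjusted p up to 0.0786, and -6.51 on the log2 scale without the last).

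The NADPH oxidase makes superoxide in phagocytes. Of 11 measured genes of it 3 were called higher in ccl34b.1+ cells and 0 lower, with a median of 1.00. The organising subunit gene NCF1 was at 5413, 5730 and 4150 against 248, 948 and 1005 CPM (2.80 ± 0.48, adjusted p = 0.000443). The catalytic subunit gene cybb was at 1810, 1532 and 1526 against 483, 307 and 453 CPM (1.97 ± 0.47, adjusted p = 0.0139). Neither of these genes overlapped between gates. The call of NCF1 held without each library in turn, and that of cybb was lost without ccl34b.1+ library 1 or ccl34b.1- library 2 (adjusted p = 0.0616 and 0.0605).

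The vacuolar ATPase, the proton pump of endosomes and phagosomes, acidifies these compartments. Of 19 measured subunit genes 4 were called higher in ccl34b.1+ cells and 0 lower, all 19 had positive log2 fold changes, and the median was 1.57. The 3 ccl34b.1+ libraries lay above the 3 ccl34b.1- libraries for 16 of the 19, where 8.12% of all genes did so. In the membrane sector, ATP6V0B was at 1021, 967 and 996 against 85.6, 230 and 224 CPM (2.47 ± 0.52, adjusted p = 0.00504). ATP6V0C (ENSDARG00000057853), the proteolipid ring subunit, was at 4188, 2926 and 2983 against 1177, 1023 and 523 CPM (1.89 ± 0.42, adjusted p = 0.00852). ATP6V1A (ENSDARG00000034534), the catalytic subunit of the outer sector, was at 457, 305 and 328 against 53.9, 52.2 and 3.14 CPM (3.32 ± 0.82, adjusted p = 0.0204). The accessory gene ATP6AP2 was at 1732, 1955 and 1897 against 494, 682 and 705 CPM (1.57 ± 0.39, adjusted p = 0.0212). The call of ATP6V0B held without each library. That of ATP6V0C was lost without ccl34b.1+ library 1 (adjusted p = 0.0575) or ccl34b.1- library 3 (0.0531), that of ATP6V1A without ccl34b.1+ library 1 or 3 (0.0803 and 0.0523), and that of ATP6AP2 without any ccl34b.1+ library or ccl34b.1- library 1 (up to 0.0849). Without ccl34b.1+ library 1 the list held 1 call, and without ccl34b.1+ library 3 it held 2. After PBS, 0 of these 19 genes were called in either direction (2.69% of all genes were), with ATP6V0B at 223 ± 76.8 and 126 ± 41.4 CPM (SD, n = 4 and 4). No vacuolar ATPase gene was called for a difference between the treatments in the gate difference.

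Of 65 lysosomal genes 3 were called higher (0.886% of all genes) and 1 lower (1.43%), with a median of 0.24. All 3 ccl34b.1+ libraries lay above all 3 ccl34b.1- libraries for 13 of the 65 (8.12% of all genes). The macrophage sialomucin gene cd68 was at 2179, 1638 and 1838 against 411, 284 and 800 CPM (1.92 ± 0.51, adjusted p = 0.0336). The acid ceramidase gene ASAH1 (ENSDARG00000034817) was at 639, 371 and 332 against 48.3, 148 and 2.13 CPM (2.76 ± 0.74, adjusted p = 0.0366). Both calls were lost in 4 or more of 6 fits, among them every fit without a ccl34b.1+ library (adjusted p up to 0.122 for cd68 and 0.146 for ASAH1, whose fold change was 4.15 without ccl34b.1- library 2). The cathepsin B genes split: CTSB was at 2106, 1744 and 1656 against 609, 776 and 703 CPM (1.4 ± 0.39, adjusted p = 0.0447, above 0.05 without any 1 library). Its relative ctsbb had 4 counts in ccl34b.1+ cells against 107, 54.5 and 182 CPM (-8.43 ± 1.84, adjusted p = 0.00734, 0.053 without ccl34b.1+ library 3, and -9.68 without ccl34b.1+ library 1). Among engulfment genes 0 of 23 were higher and 2 lower. These were tyrobp, an adaptor of phagocytic receptors, with 2 counts against 100, 3.36 and 70.0 CPM (adjusted p = 0.0216), and anxa5b, an annexin that binds phosphatidylserine, with 5 counts against 3.04, 190 and 142 CPM (adjusted p = 0.047). Each of the 2 was lost without any ccl34b.1+ library, and anxa5b also without ccl34b.1- library 2 or 3 (adjusted p up to 0.179). The fold change of anxa5b, -8.04, was -9.66 without ccl34b.1+ library 2 and -7.42 without ccl34b.1- library 2.

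Sugar, lipid and iron genes held few calls. SLC2A6, a lysosome-associated member of the glucose transporter family in mammals, was at 2786, 2169 and 3480 against 60.4, 282 and 128 CPM (4.17 ± 0.65, adjusted p = 0.000119, 4.90 without ccl34b.1- library 2). It was the 1 gene called of 31 in the glycolysis list (0.886% of all genes were called higher), whose median was 0.65. The next members by adjusted p, hexokinase gene HK2 and PFKFB3, were at 1.94 ± 0.62 and 1.5 ± 0.51 (adjusted p = 0.102 and 0.134). In the lipid list 3 of 21 were higher, apoc1 and apoeb again and the lipid droplet coat gene plin3, at 935, 708 and 1091 against 117, 353 and 322 CPM (1.79 ± 0.50, adjusted p = 0.0458). The plin3 call was lost in each fit but that without ccl34b.1- library 2 (adjusted p up to 0.163). Sterol synthesis genes had a median of 1.1 with 0 of 28 called. The iron and redox list had 0 of 42 higher and 1 lower (1.43% of all genes were called lower). The 1 was the catalase gene CAT, with 3 counts against 18.7, 0 and 30.7 CPM (adjusted p = 0.0483, lost without each library except ccl34b.1- library 2, up to 0.196). The iron hormone gene hamp was at 2556, 2146 and 1877 against 127, 52.7 and 0.304 CPM. It was not called (5.19 ± 1.62, adjusted p = 0.142). Outside the lists, the ferritin heavy chain gene fthl27 was called higher (2.06 ± 0.41, adjusted p = 0.00409). Its levels are given under other observations.

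Pan-myeloid genes had members on both sides: 7 of 28 were called higher and 4 lower, with a median of 1.27. A pair of IDs named MFAP4, a macrophage marker in zebrafish, led the former. ENSDARG00000089667 was at 2928, 1480 and 1939 against 101, 51.3 and 158 CPM (4.35 ± 0.59, adjusted p = 1.52e-05) and ENSDARG00000090783 at 7837, 6486 and 9858 against 1040, 318 and 1067 CPM (3.32 ± 0.66, adjusted p = 0.00749). The Fc receptor adaptor gene fcer1gl was at 1213, 873 and 889 against 147, 187 and 119 CPM (2.71 ± 0.48, adjusted p = 0.000674). The pleckstrin gene PLEK was at 945, 1176 and 977 against 73.6, 274 and 145 CPM (2.65 ± 0.49, adjusted p = 0.00121, 3.24 without ccl34b.1- library 2). The other 3 were cd68 and the transcription factor genes CEBPB and spi1a. CEBPB, an activator of inflammatory genes, was at 3861, 4751 and 6185 against 1003, 2467 and 1420 CPM (1.60 ± 0.35, adjusted p = 0.00749, lost without ccl34b.1+ library 3 at 0.0589 or ccl34b.1- library 1 at 0.0611). The gene spi1a, a PU.1 gene of myeloid cells, was at 1368, 583 and 1281 against 323, 235 and 302 CPM (1.91 ± 0.42, adjusted p = 0.00848, 0.0512 without ccl34b.1+ library 1). Called lower were MPEG1, tyrobp, hcls1 and ARPC1B. In the lineage transcription factor list, 3 of 29 were higher (CEBPB, spi1a and IKZF1) and 2 lower, ID2 and the orphan receptor gene NR4A3 at 238, 232 and 55.5 against 1560, 517 and 950 CPM (-2.52 ± 0.51, adjusted p = 0.00376). IKZF1 was at 473, 230 and 352 against 56.4, 53.4 and 0.506 CPM (adjusted p = 0.0282, lost without ccl34b.1+ library 1 at 0.0943 or 3 at 0.0641).

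Of 13 measured genes of MHC class II antigen presentation 5 were called lower in ccl34b.1+ cells and 0 higher, with a median of -1.61. The dendritic cell maturation gene cd83, which this list shares with the dendritic cell list, was at 296, 85.3 and 92.5 against 2617, 755 and 1496 CPM (-3.36 ± 0.56, adjusted p = 0.000317, -4.19 without ccl34b.1+ library 1). The invariant chain gene cd74b, a chaperone of class II molecules, was at 3193, 1250 and 1972 against 6535, 3404 and 9637 CPM (-1.61 ± 0.32, adjusted p = 0.00309). Its paralog cd74a was at 10423, 3744 and 4381 against 20836, 10327 and 17190 CPM (-1.38 ± 0.35, adjusted p = 0.0298). The thiol reductase gene ifi30a, which unfolds antigens in the lysosome, was at 226, 36.4 and 37.9 against 631, 484 and 1527 CPM (-3.14 ± 0.60, adjusted p = 0.00374). It was at -4.57 without ccl34b.1+ library 1 and -2.47 without ccl34b.1- library 3. The beta chain gene mhc2dab was at 685, 249 and 423 against 2470, 1216 and 8677 CPM (-3.19 ± 0.74, adjusted p = 0.0392, -2.01 without ccl34b.1- library 3). Of the 5, cd74a alone overlapped, since ccl34b.1+ library 1 (10423 CPM) lay above a ccl34b.1- library (10327 CPM). The calls of cd74a and mhc2dab were each lost in 4 of 6 fits without 1 library (adjusted p up to 0.149 and 0.151). With the 6 E. coli libraries fitted alone in edgeR only cd83 of the 5 was called, and cd74b and ifi30a stood at adjusted p = 0.155 and 0.0976. The fold change of cd74a was -1.99 without ccl34b.1+ library 1. After PBS the cd74b levels were 16158 ± 4580 and 15136 ± 3064 CPM (SD, n = 4 and 4, adjusted p = 0.966). The difference between treatments in the gate difference was called for ifi30a (-3.52, adjusted p = 0.0447) and not for cd74b (-1.70, adjusted p = 0.0784), cd74a (-1.89, adjusted p = 0.0807), cd83 (-2.59, adjusted p = 0.117) or mhc2dab (-3.37, adjusted p = 0.199). MHC class I genes gave 0 of 30 called in either direction, with b2m at 1534, 1118 and 653 against 2564, 1586 and 1487 CPM (-0.77 ± 0.42, adjusted p = 0.286).

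Complement and interferon genes held a few calls, all lower in ccl34b.1+ cells. Of 10 complement genes 2 were lower, both chains of C1q, the initiator of the classical pathway. The level of c1qb was 58.8, 3.2 and 4.47 against 229, 181 and 314 CPM (-3.45 ± 0.77, adjusted p = 0.0112, 0.0508 without ccl34b.1- library 3, and -5.97 without ccl34b.1+ library 1). That of c1qc was 87.2, 28.0 and 45.7 against 260, 128 and 566 CPM (-2.57 ± 0.71, adjusted p = 0.0462, lost in 5 of 6 fits, up to 0.226, and -1.84 without ccl34b.1- library 3). Of 33 interferon-stimulated genes 2 were lower, with a median of 0.27. The interferon regulatory factor gene IRF7 was at 84.9, 51.1 and 147 against 1559, 330 and 1279 CPM (-3.49 ± 0.81, adjusted p = 0.0152). The IRF7 call was lost without ccl34b.1+ library 1 or 2 or ccl34b.1- library 1 or 3 (adjusted p up to 0.112).

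Immediate early genes, the transcription factors that cells switch on within minutes of a stimulus, divided by gene. Of 49 measured, 5 were called higher (0.886% of all genes were) and 3 lower (1.43%), with a median of 0.02. The MAP kinase phosphatase gene DUSP2 was at 1249, 2138 and 2600 against 151, 50.5 and 131 CPM (4.17 ± 0.49, adjusted p = 1.23e-06). The zinc finger factor genes egr1 and egr2a were also higher: egr1 was at 878, 954 and 556 against 59.8, 82.1 and 49.6 CPM (3.64 ± 0.51, adjusted p = 2.3e-05). The egr2a values were 331, 176 and 405 against 3.04, 29.6 and 14.8 CPM (4.26 ± 0.79, adjusted p = 0.00206, 5.08 without ccl34b.1- library 2). Among AP-1 genes, JUNB (ENSDARG00000104773) was higher at 1800, 2212 and 3134 against 358, 322 and 908 CPM (2.17 ± 0.47, adjusted p = 0.00921, lost without ccl34b.1+ library 3 or ccl34b.1- library 1, 0.0509 and 0.0546, and 2.84 on the log2 scale without ccl34b.1- library 3). FOSL1 was higher at 1199, 1323 and 1403 against 185, 84.5 and 5.27 CPM (3.84 ± 0.84, adjusted p = 0.0188, lost without ccl34b.1+ library 3 or ccl34b.1- library 2, 0.0555 and 0.0744, and 4.87 on the log2 scale without ccl34b.1- library 1). JUN itself was lower, at 312, 311 and 395 against 3424, 1040 and 3298 CPM (-2.93 ± 0.46, adjusted p = 0.000119), as were NR4A3 and MYC (ENSDARG00000007241). MYC, a growth regulator, was at 0, 0.738 and 1.91 against 56.8, 0.224 and 10.1 CPM, with overlap, and its call (-4.6 ± 1.2, adjusted p = 0.0411) was lost in each fit but that without ccl34b.1- library 2. Its fold change was -2.52 without ccl34b.1- library 1 and -5.83 without ccl34b.1+ library 3. The JUN call held without each library, so that JUN and JUNB, whose products both pair with Fos proteins, lay in opposite gates. After PBS 13 genes of this list were called higher (1.21% of all genes were) and 1 lower (1.48%). The difference between the treatments in the gate difference was called for 2 of the 49. DUSP2 was also the 1 call of 37 in the cytokine receptor and feedback list.

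Heat shock genes had 3 of 30 higher and 0 lower, with a median of 0.43. The inducible chaperone genes hsp70.3 and hsp70.1 were at 4852, 8923 and 7940 against 665, 310 and 1561 CPM (3.1 ± 0.64, adjusted p = 0.0133) and at 1399, 2955 and 2157 against 355, 139 and 789 CPM (2.34 ± 0.60, adjusted p = 0.0371). These paralogs may share reads. HSPA4 (ENSDARG00000004754) was at 285, 726 and 975 against 115, 165 and 104 CPM (2.37 ± 0.60, adjusted p = 0.0234). Without ccl34b.1- library 1 none of the 3 was called (adjusted p = 0.0621 for hsp70.3). Without ccl34b.1- library 3 the fold changes of hsp70.3 and hsp70.1 were 3.92 and 3.16. HSPA4 and hsp70.1 were each lost in 3 further fits (adjusted p up to 0.147 and 0.129). In the unfolded protein response list, 1 of 50 was higher (0.886% of all genes were) and 1 lower (1.43%), with a median of 0.09. The chaperone gene HSPA5 (BiP) was at 3730, 6815 and 6543 against 1516, 2136 and 1830 CPM (1.64 ± 0.37, adjusted p = 0.00852, lost without ccl34b.1+ library 2 or ccl34b.1- library 1, 0.0537 and 0.0539). The stress-induced gene sesn2 was at 16, 1.48 and 8.72 against 198, 19.7 and 263 CPM (-4.19 ± 1.00, adjusted p = 0.015, lost without ccl34b.1+ library 2 or 3, up to 0.0951, and -4.96 without ccl34b.1+ library 1). After PBS, 8 genes of this list were called higher in ccl34b.1+ cells (1.21% of all genes were) and 0 lower.

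Of 45 measured genes of the leukocyte actin cytoskeleton 8 were called lower in ccl34b.1+ cells and 1 higher, with a median of -0.88, and all 3 ccl34b.1+ libraries lay below all 3 ccl34b.1- libraries for 20 of the 45 (7.06% of all genes). The actin-sequestering gene tmsb4x was at 1384, 915 and 889 against 6727, 7257 and 4919 CPM (-2.57 ± 0.31, adjusted p = 2.13e-06), and the profilin gene pfn1 at 2724, 1963 and 1721 against 7267, 3749 and 9704 CPM (-1.69 ± 0.31, adjusted p = 0.00118). Subunits of the Arp2/3 complex, which nucleates branched actin, were among the members: ARPC1B was at 555, 371 and 358 against 1398, 1214 and 2473 CPM (-1.99 ± 0.36, adjusted p = 0.000788). ARPC5 (ENSDARG00000019062) was at 3.01, 2.95 and 9.15 against 216, 63.2 and 359 CPM (-5.39 ± 0.74, adjusted p = 1.68e-05), and at -6.14 without ccl34b.1+ library 3 and -4.76 without ccl34b.1- library 3. WIPF1, a partner of the Wiskott-Aldrich protein, had 6 counts in all ccl34b.1+ libraries against 161, 82.5 and 229 CPM (-8.33 ± 1.3, adjusted p = 0.000119). The calls of these 5 genes held without each library. Those of hcls1 (-4.45), TLN1 (-1.99) and WAS (-2.52) complete the 8, of which hcls1 held without each library and was at -8.18 without ccl34b.1+ library 1. TLN1 and WAS were lost in 5 and 4 of 6 fits (adjusted p up to 0.155 and 0.217), and WAS was at -4.56 without ccl34b.1+ library 1. Against this direction marcksl1a, a membrane-actin linker gene, was higher at 2565, 2966 and 2394 against 983, 573 and 598 CPM (1.88 ± 0.41, adjusted p = 0.00678).

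Cytosolic ribosomal protein genes leaned the same way with few calls. All 76 measured genes had negative log2 fold changes (6407 of all 12421 genes did), with a median of -1.31. For 52 of them all ccl34b.1+ libraries lay below all ccl34b.1- libraries (7.06% of all genes), while 2 were called lower (1.43% of all genes). RPL19 was at 560, 613 and 592 against 1061, 2134 and 1504 CPM (-1.41 ± 0.37, adjusted p = 0.0291). Its call was lost without any ccl34b.1+ library and without ccl34b.1- library 2 or 3 (adjusted p up to 0.12). The summed level of the list was 13890 to 16226 CPM in ccl34b.1+ and 21258 to 48512 CPM in ccl34b.1- libraries. Without ccl34b.1- library 2 the median was -0.83 and 72 of 76 were negative. After PBS, RPL19 was at 1069 ± 191 and 1023 ± 273 CPM (SD, n = 4 and 4, adjusted p = 0.992). The test of that difference between treatments did not pass (-1.48, adjusted p = 0.208).

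Proteasome genes (median 0.26) and cell cycle genes (median -1.31) gave 0 of 42 and 0 of 22 called.

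**Figure D3:**
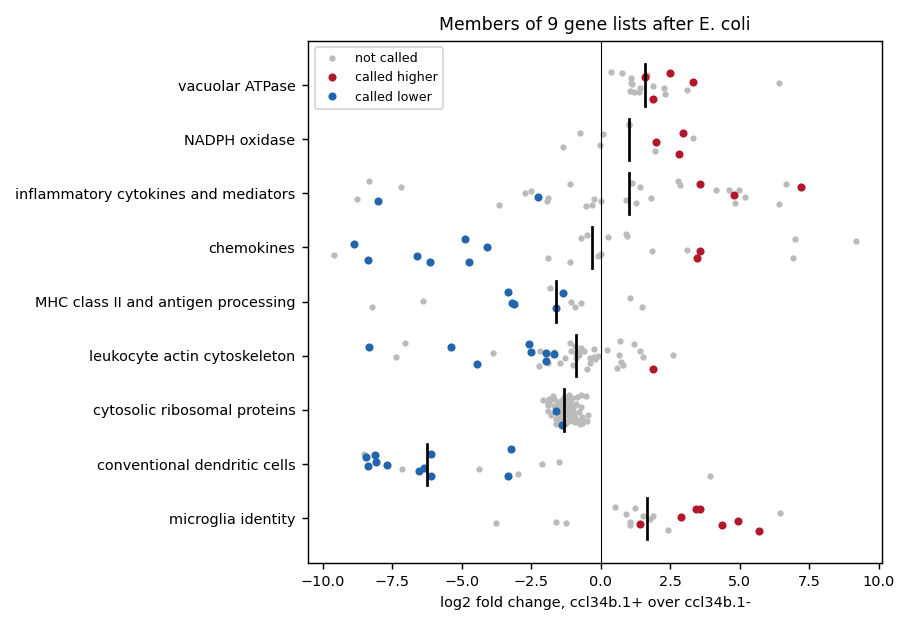
Dots are the measured genes of 9 lists, placed by log2 fold change (ccl34b.1+ over ccl34b.1-) with vertical scatter for visibility only, red where called higher, blue where called lower and grey where not called, and black bars are list medians. All 19 vacuolar ATPase genes lie right of 0 and all 76 ribosomal protein genes left of it, while the inflammatory and chemokine lists spread to both sides.

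**Figure D4:**
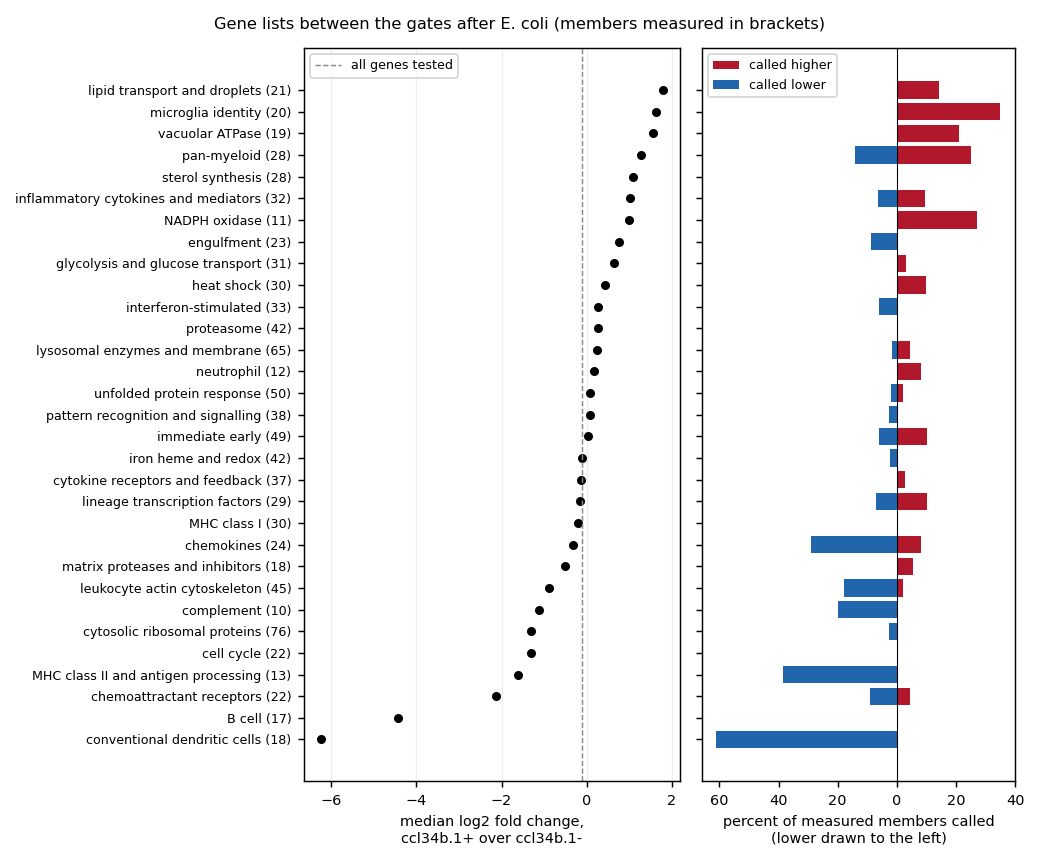
The left panel gives the median log2 fold change of each list with at least 10 measured members (number in brackets), with the median of all genes (-0.10) dashed, and the right panel the percentage of members called higher (right) or lower (left). The dendritic cell list has the lowest median (-6.24) and the lipid list the highest (1.79), and 287 of all 12421 genes (2.31%) were called.

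The largest fold changes belonged mostly to genes of low level with few or no counts in 1 gate after E. coli. On the ccl34b.1+ side, 5 of the 12 that the rule names had 0 counts in all ccl34b.1- libraries. The sulfotransferase gene sult2st3 was at 41.9, 263 and 114 CPM, at least 895-fold higher against a floor of 3 counts over the ccl34b.1- group, but its call was lost without ccl34b.1+ library 2 (adjusted p = 0.0883). VPS41, which tethers vesicles to lysosomes, was at 54.1, 125 and 21.5 CPM (at least 429-fold), NOC2L at 71.7, 66.6 and 24.0 CPM (at least 348-fold) and CLUH (ENSDARG00000030913) at 5.09, 33.9 and 45.9 CPM (at least 182-fold). These 3 calls held without each library, as did that of ms4a17a.8, a membrane protein gene. It was at 487, 503 and 327 against 0.608, 1.57 and 0 CPM (9.26 ± 1.72, adjusted p = 0.00141). With the 6 E. coli libraries fitted alone ms4a17a.8 was called (adjusted p = 0.00572). VPS41, NOC2L and CLUH were not called in that fit (0.083, 0.102 and 0.163). The ms4a17a.8 fold change was 10.55 without ccl34b.1- library 2 and 8.66 without ccl34b.1- library 3. The other 7 were TTYH2 (ENSDARG00000016934), PPP1R3C (ENSDARG00000014554), SNX33, clic5b, DCP1B, tfb2m and ARFGEF2. Each had 0 to 4 counts in the ccl34b.1- group and lost its call in 4 or more of 6 fits.

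On the ccl34b.1- side the best supported of the 12 were calm1b, a calmodulin gene, and SYNGR3 (ENSDARG00000025034), a vesicle membrane gene. The former was at 0.694, 1.23 and 0 against 375, 246 and 195 CPM (-8.68 ± 1.18, adjusted p = 1.52e-05), and at -9.52 without ccl34b.1+ library 2. The latter was at 0.694, 0.738 and 0.213 against 382, 157 and 162 CPM (-8.67 ± 1.13, adjusted p = 7.55e-06). ZNF366, a transcription factor gene of dendritic cells in mammals, had 0 counts against 63.3, 28.3 and 97.8 CPM (at least 275-fold lower, adjusted p = 0.00598). The ZNF366 call held without each library but not with the 6 E. coli libraries fitted alone (adjusted p = 0.0977). The remaining 9 each lost their call in 3 or more of 6 fits. P2RX3 (ENSDARG00000029718), an ATP-gated channel gene, is the extreme case, at 0.203, 1.35 and 360 CPM in ccl34b.1- cells against 0, with adjusted p = 0.321 and a fold change of -4.59 without ccl34b.1- library 3. The others were inppl1b, OSBPL3 (ENSDARG00000033251), slc8a4b, macf1a, anpepla, ccl33.3, MSI1 and TAGLN (ENSDARG00000033466).

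Markers of other cell types were read beside these results. Of 12 measured neutrophil-list genes 1 was called, fcer1gl, which is also pan-myeloid. Log2 fold changes were positive for 6 and negative for 6, from -10.26 to 9.44, with a median of 0.18. All ccl34b.1+ libraries lay above all ccl34b.1- libraries for 2 of the 12 (8.12% of all genes), and below them for 0 (7.06%). The summed level of the list was 2161 to 2743 CPM in ccl34b.1+ and 994 to 4300 CPM in ccl34b.1- libraries. The lysozyme gene lyz had 0 counts in all 6 libraries, and npsn, a neutrophil protease gene, was at 0.406, 27.8 and 0.101 CPM in ccl34b.1- libraries and 0 in the others. The matrix protease genes of neutrophils were confined to ccl34b.1- libraries 2 and 3 at any sizeable level: MMP9 was at 0, 1190 and 2170 CPM and mmp13a at 0, 525 and 49.0 CPM, against at most 2.70 and 1.23 CPM in ccl34b.1+ libraries. Neither was called (adjusted p = 0.149 and 0.0689). B cell-list genes gave 0 of 17 called, but 14 had negative log2 fold changes (6407 of all 12421 genes did), with a median of -4.44. Of the 17, 6 had 0 counts in all ccl34b.1+ libraries, so that their fold change could not be positive. With lower bounds for folds against 0 counts the median was -3.32. For 7 of the 17 all ccl34b.1+ libraries lay below all ccl34b.1- libraries (7.06% of all genes). Their summed levels were 2948 to 4241 and 3842 to 10503 CPM. These sums include XBP1, at 1748, 1488 and 2478 against 3648, 2691 and 5827 CPM. They also include CXCR4 (ENSDARG00000041959), at 358, 242 and 558 against 1757, 651 and 3817 CPM. The immunoglobulin light chain gene igic1s1 was at 0.231, 0 and 0.213 against 9.94, 13.9 and 61.5 CPM (ratio 244, interval 67.3 to 2018, adjusted p = 0.133). In the T cell list 1 of 5 was called, CCR9, with summed levels of 15.7 to 96.7 and 293 to 921 CPM, and cd4-1 stood at 62.1 CPM in ccl34b.1- library 1 alone. Of the endothelial list 1 of 5 was called, pecam1a, an adhesion gene also found on leukocytes in mammals, at 145, 32.5 and 62.7 against 1.01, 0.897 and 0.911 CPM (6.37 ± 1.22, adjusted p = 0.00165, 5.62 without ccl34b.1+ library 1). The endothelial genes cdh5 and kdrl had at most 1.11 CPM in any library. Of the mural list 1 of 5 was called, TAGLN (ENSDARG00000033466), at 0, 0.246 and 0.213 against 37.3, 136 and 35.9 CPM (adjusted p = 0.0195, lost without any ccl34b.1+ library), while acta2 was at 2.23 CPM or less. Neuron, oligodendrocyte and radial glia lists gave 0 of 6, 0 of 3 and 0 of 6 called. Their summed levels were 10.8 to 22.1, 3.2 to 324 and 572 to 863 CPM in ccl34b.1+ libraries. In ccl34b.1- libraries they were 0.101 to 17.5, 68.4 to 216 and 236 to 273 CPM. The 3 oligodendrocyte genes were uneven and did not share a direction, with a median of -0.48. The myelin gene mbpa was at 176, 0 and 133 against 61.6, 0.224 and 0.506 CPM (2.31). On the log2 scale cnp and mbpb leaned the other way, at -0.91 and -0.48. Mast-like genes gave 1 of 2 called, fcer1gl again. Of the erythrocyte list 1 gene, hemgn, was measured, with 0 counts in the 6 libraries. Below the filter on low counts, epb41b of that list was at 17.6 CPM in ccl34b.1+ library 1 alone. No NK-like or thrombocyte gene passed the filter, and SELE of the thrombocyte list was at 82.3 CPM in ccl34b.1- library 2. Of 15 NK-like genes 11 had 0 counts in all 6 libraries. EOMES (ENSDARG00000006640), a lymphocyte transcription factor gene, was at 95.5 CPM in ccl34b.1- library 1, and il2rb at 19.6 CPM in ccl34b.1+ library 3 alone. The part of these other cells in the gate difference was not tested.

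To see how far the gate difference belonged to the E. coli fish, it was set against that of PBS-injected fish in the same fit. After PBS 334 genes were called (2.69%), and the overlap with E. coli was 46 genes among those higher, of 110 after E. coli and 150 after PBS. Among those lower it was 85 genes, of 177 and 184, and 1 gene was called in both with opposite sign. A gene called in 1 treatment only is not thereby different between them, and the difference itself was called for 34 genes (0.274%), 16 more positive (0.129%) and 18 more negative (0.145%) after E. coli. With DESeq2 size factors the split was 18 and 11, and the median of all genes in this difference moved from -0.18 to 0.02. At an unadjusted p under 0.05 the test gave 1734. Of the 34, 17 were among the 287 genes called after E. coli, 21 were not called after PBS, and 24 had gate differences of opposite sign in the treatments. Leaving out 1 library gave 14 (without ccl34b.1+ library 2 of the E. coli fish) to 55 (without ccl34b.1- library 2), with the 8 PBS libraries in turn left out giving 17 to 23.

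The gene with the smallest adjusted p was FES, which encodes a cytoplasmic tyrosine kinase of myeloid cells. It was at 418, 579 and 400 CPM in ccl34b.1+ and 122, 20.2 and 162 CPM in ccl34b.1- cells after E. coli (2.2 ± 0.68, adjusted p = 0.0867). After PBS it was at 1.2 ± 0.19 and 268 ± 100 CPM (SD, n = 4 and 4, -7.76, adjusted p = 2.31e-08). The gate difference thus differed by 9.96 ± 1.05 on the log2 scale (adjusted p = 8.54e-07), with the ccl34b.1+ libraries above those of the other gate after E. coli and below them after PBS. The semaphorin gene sema4ab showed the same crossing, at 612, 946 and 817 against 162, 117 and 161 CPM after E. coli and 37.0 ± 13.4 against 284 ± 184 CPM after PBS (difference 5.37 ± 0.77, adjusted p = 0.000386). So did lygl1, a goose-type lysozyme gene, at 3762, 3638 and 3713 against 1302, 1580 and 1502 CPM after E. coli and 174 ± 42.1 against 453 ± 185 CPM after PBS (2.72 ± 0.50, adjusted p = 0.00785). Its gate difference after E. coli alone was not called (1.34 ± 0.38, adjusted p = 0.0533).

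In the other direction, TTYH3 (ENSDARG00000034473), a chloride channel gene, was nearly absent from ccl34b.1+ cells after E. coli, at 0.925, 1.72 and 0.851 against 220, 78.9 and 147 CPM (-6.96 ± 0.85, adjusted p = 2.13e-06). After PBS it was at 122 ± 54.7 and 191 ± 47.4 CPM (difference -6.32 ± 0.95, adjusted p = 0.000692). Transcription factor genes of the unfolded protein response were XBP1 and DDIT3. XBP1 was at 1748, 1488 and 2478 against 3648, 2691 and 5827 CPM after E. coli and at 7431 ± 1360 against 2692 ± 884 CPM after PBS (-2.55 ± 0.42, adjusted p = 0.00254). DDIT3 (CHOP) was at 640, 859 and 1394 against 1260, 695 and 1663 CPM after E. coli and at 6325 ± 3246 against 1073 ± 349 CPM after PBS (-2.88 ± 0.53, adjusted p = 0.00785). The gate difference after E. coli itself had an adjusted p of 0.0605 for XBP1 and 0.74 for DDIT3. XBP1 was called with limma-trend (adjusted p = 0.02) and with a replicate block (0.0265). It was not called with DESeq2 (0.0509), DESeq2 size factors (0.0757) or the 6 E. coli libraries alone (0.232). Of the 6 fits without 1 E. coli library, 1 called it. The chemokine gene cxcl11.5, with no overlap between gates after E. coli, was at 9.52 ± 13.2 and 5.30 ± 5.24 CPM after PBS (-7.02 ± 1.28, adjusted p = 0.00785). The IL-8-family gene cxcl8b.1 was at 42.3, 10.1 and 0.851 against 30.2, 135 and 32.4 CPM after E. coli, with overlap, and at 272 ± 310 against 0.500 ± 0.578 CPM after PBS (-11.05 ± 1.99, adjusted p = 0.00785). Of these 8 genes, 6 were called without each of the 14 E. coli and PBS libraries in turn, while cxcl11.5 was lost without ccl34b.1+ library 2 of the E. coli fish (adjusted p = 0.0506) and cxcl8b.1 without ccl34b.1+ library 2 of the PBS fish (0.0795). With the 2 control fish in place of PBS the difference was again called for FES (7.06, adjusted p = 0.00504), TTYH3 (-7.64, 0.00318), DDIT3 (-3.80, 0.00579), lygl1 (3.05, 0.0367) and XBP1 (-2.43, 0.0431). It was not called for sema4ab (3.33, adjusted p = 0.224), cxcl11.5 (-0.49, 1.0) or cxcl8b.1 (-2.30, 0.82).

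**Figure D5:**
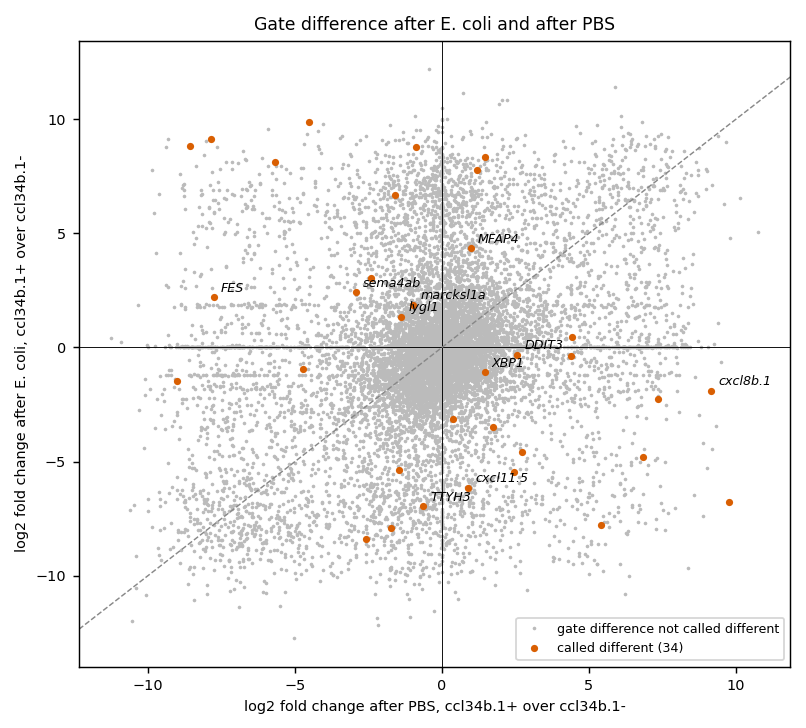
Each point is 1 of 12421 genes, with the log2 fold change between gates (ccl34b.1+ over ccl34b.1-) after PBS on the x axis and after E. coli on the y axis, and the dashed line marks equal values. The 34 genes in orange were called for a difference between the treatments, among them FES (-7.76 after PBS and 2.2 after E. coli) and TTYH3 (-0.64 and -6.96).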

How the data were processed

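Polyadenylated RNA of 100 sorted cells per library was amplified by Smart-seq2 without molecular identifiers (24 and 12 PCR cycles, per the labels' protocols), so intervals cover counting error only. The deposited values are raw gene counts, and the submitters' processing notes name STAR, featureCounts, DESeq2 and the zebrafish build GRCz11. Versions, annotation release, strand setting and the handling of multi-mapping reads are not given in the sources used here, so paralogs and overlapping genes may share reads. Names came from a RefSeq gene table of another build and matched 29201 of 32520 IDs. Symbols shared by several IDs are printed with the ID.

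The 18 libraries of the injection experiment (6 groups) entered a single model in edgeR 4.0.16 (R 4.3.3), with its filter on low counts, TMM factors, the robust quasi-likelihood test and Benjamini-Hochberg adjustment over all 12421 genes. All adjusted p-values in the text come from this fit unless another tool is named. Replicates are separate fish per the design text. Named genes were the sort genes, the 12 largest called fold changes in each direction with a proper name, at least 20 CPM in the higher gate and no overlap, the 3 members of smallest adjusted p of each of 41 lists, and the 8 named genes of smallest adjusted p for the difference from PBS fish (ties by unadjusted p). Other list members were named after their values were seen. The members and lists were chosen with earlier results of these data known. A fold against 0 counts is a lower bound from 3 counts over the group, and 1 to 3 counts give a ratio with its 95% counting interval. The fit was also tested on simulated data with seeded gate differences, drawn with the means and dispersions that it had estimated from the real counts. It recovered 0% of genes changed 4-fold, 16% at 8-fold, 34% at 16-fold and 50% at 32-fold, and 3 of 53 calls were false. A gene that was not called can therefore still differ between the gates. These rates are those of the simulation only, since the real fit called smaller differences, such as that of CEBPB (1.60 on the log2 scale). DESeq2 1.42.0, limma 3.58.1 (voom, and limma-trend added after the data were seen), other scaling and filters, a replicate block and leaving out libraries were alternatives. Each fish gave both gates, but no label says that equal numbers mark the same fish. Same-numbered E. coli libraries correlated only weakly (0.018 to 0.029), although 6 of 6 correlated best with their own number. In PBS fish this did not hold throughout, since ccl34b.1+ library 2 was at 0.007 with its own number and 0.014 with number 1. These correlations are too small to decide on pairing, and the main fit leaves it out. Results on some list members are not reported here.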

Additional observations from a re-analysis of the deposited data

Results flagged for a closer look

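The gate difference differed between E. coli and PBS fish, by the interaction test of the edgeR fit, for 14 of the genes picked by the naming rule. Values are the gate difference after E. coli minus that after PBS on the log2 scale. It was more positive after E. coli for FES (9.96, adjusted p = 8.54e-07), sema4ab (5.37, 0.000386), lygl1 (2.72, 0.00785), MFAP4 (ENSDARG00000089667, 3.37, 0.0276) and PPP1R3C (ENSDARG00000014554, 14.4, 0.0447). It was more negative for TTYH3 (ENSDARG00000034473, -6.32, adjusted p = 0.000692), XBP1 (-2.55, 0.00254), DDIT3 (-2.88, 0.00785), cxcl11.5 (-7.02, 0.00785), cxcl8b.1 (-11.05, 0.00785), IRF7 (-5.22, 0.0264), ARPC5 (ENSDARG00000019062, -3.92, 0.036), ifi30a (-3.52, 0.0447) and mmp13a (-13.18, 0.0497).

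Of the 14 fits without 1 E. coli or PBS library, FES, sema4ab, TTYH3, XBP1, DDIT3 and lygl1 were called in all. Outside the naming rule, marcksl1a and MYC (ENSDARG00000007241), both described above, were also called for this difference. In these fits marcksl1a ran from 2.69 to 3.21 and was called in all 14, while MYC ran from -8.54 to -5.23 and was called in 3. MFAP4 was called in 7 (adjusted p up to 0.103), IRF7 in 8 (0.11), ARPC5 in 6 (0.126), ifi30a in 3 (0.114), PPP1R3C in 4 (0.349) and mmp13a in 2 (0.246). The value of PPP1R3C ran from 6.3 without ccl34b.1- library 2 of the PBS fish to 15.98; that library held 91.7 CPM of it, and the mean of the 4 was 23 CPM.

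In PBS fish 1 ccl34b.1+ library stood far from the other 3 for cxcl8b.1, at 734 CPM (gap of 0.882 of the group's range), and 1 for cxcl11.5, at 29.3 CPM (0.938 of the range). How often such a gap arises in groups of this size was not tested.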

How the results depend on the processing

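Of 287 genes called between gates after E. coli, DESeq2 size factors gave 291 (278 shared) and a 10 CPM filter 378, while the count was 472 with no filter on low counts, 112 from the 6 libraries alone, 477 with voom, 460 with limma-trend (247 shared) and 1589 with DESeq2. Left-out libraries gave 162 to 351. For the 34 genes that differed from PBS fish, it was 146 with no filter, 595 with DESeq2, 28 with voom, 17 with limma-trend, 9 against control fish and 14 to 55 with 1 library left out. Over all lists, 92 of 887 measured members were called, 49 from the 6 libraries alone, 208 with DESeq2 and 58 to 94 with 1 library left out. The cause of these differences was not tested. The mean-variance trend of voom fell to -0.272 among abundant genes, where its weights reached 4.1e+12 against a median of 0.235. Its adjusted p-values for such genes (ccl19a.1 0.972, mhc2daa 0.989) are not read here. Limma-trend, which has no such weights, was chosen after seeing this. Genes with far smaller weights were lost with voom too, among them slco2b1 (adjusted p = 0.151, highest weight 14.4) and pecam1a (0.124, 4.66). Whether the weights account for the lost calls was not tested.

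Same-numbered E. coli libraries deviated together weakly (correlation 0.018 to 0.029), which is too small to decide on pairing, though 6 of 6 correlated best with their own number. With the replicate block 393 genes were called between gates (250 shared), 105 for the difference from PBS and 122 list members. XBP1 was then called between gates (adjusted p = 0.0265), which it was not in the main fit (0.0605).

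Of 85 named genes called, 81 remained with DESeq2 size factors, 78 with limma-trend, 52 with voom, 41 of the 80 tested with the 6 libraries alone and 51 to 70 without 1 library, 40 in each such fit, and 0 reversed under any alternative run.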

Other observations

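Some called genes of high level lay outside the lists and were chosen after their values were seen. The ferritin heavy chain gene fthl27 was at 27020, 23613 and 30637 CPM in the ccl34b.1+ gate against 6807, 5418 and 7293 CPM in the other (log2 fold change 2.06 ± 0.41, adjusted p = 0.00409 in the edgeR fit). FGL2, a fibrinogen-like gene, was at 5498, 10204 and 8882 against 758, 860 and 532 CPM (3.52 ± 0.43, adjusted p = 2.13e-06). The cell surface proteoglycan gene sdc4 was at 5153, 4599 and 5171 against 885, 274 and 567 CPM (3.11 ± 0.37, adjusted p = 2.13e-06). In none of these did the gates overlap. GPR84, a receptor for medium-chain fatty acids in mammals, was at 959, 727 and 1304 against 30.8, 103 and 45.5 CPM (4.06 ± 0.76, adjusted p = 0.00124; 4.7 without ccl34b.1- library 2), and the autophagy gene DRAM1 at 2084, 2529 and 2072 against 496, 470 and 417 CPM (2.27 ± 0.48, adjusted p = 0.00538).

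On the ccl34b.1- side the BCL2-family gene bcl2l10 was at 49, 92.9 and 110 against 4691, 1727 and 4507 CPM (-5.44 ± 0.57, adjusted p = 1.82e-07). The granulin gene grna.1 was at 230, 107 and 155 against 1272, 1417 and 1595 CPM (-3.12 ± 0.55, adjusted p = 0.000629). The MHC class II alpha chain gene mhc2daa was at 2606, 587 and 1257 against 9768, 4604 and 16697 CPM (-2.8 ± 0.54, adjusted p = 0.0097, 0.0587 without ccl34b.1+ library 3; -3.49 without ccl34b.1+ library 1). The clock-linked repressor gene BHLHE40 was at 210, 203 and 135 against 899, 584 and 1392 CPM (-2.39 ± 0.41, adjusted p = 0.000502). All of these were separated between the gates.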
